A study of Danio rerio with 6 samples.

Results

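The liver plasma protein genes are a set of transcripts made mostly by hepatocytes, and they were read here array by array in 2 kinds of zebrafish tumour. The set was defined by a list of 10 genes, and each member is a probe set of the deposited value table whose platform annotation gives exactly that symbol. Of the 10 listed genes 9 were present, each with 1 probe set, out of 8793 genes with a symbol on the array. These 9 were fgg, fga, fgb, serpina1l, apoa2, tfa, fabp10a, rbp4 and ambp, and no probe set carried the symbol ttr alone. The list was selected on expression values of these same 6 arrays, in which liver genes were already known to stand high on 1 of them. The members' levels and differences are therefore given as a description, and no p-value over the set is reported.

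Each tumour was hybridized to its own Affymetrix zebrafish array, on which a transcript is read by a set of short probes. Of the small round blue cell tumours (SRBCT) there were 3 arrays, and these tumours came from fish of genotype Tg(HSP:EWS-FLI1); p53M214K/M214K, in which a transposon injected into early embryos carried the human fusion gene EWS-FLI1 behind a heat shock promoter, with insertion in somatic cells. The comparison tumours, malignant peripheral nerve sheath tumours (MPNST), were also on 3 arrays and came from fish of genotype p53M214K/M214K with no transgene named, so both groups share the homozygous p53 mutation. The titles call the arrays biological replicates. The labels give the tissue of every sample as tumour, and they name neither the site of the tumour, nor the age of the fish, nor the tissue removed with it. Values are log2 expression values, in which 1 unit is a doubling, and a difference between tumour types is SRBCT minus MPNST.

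Plasma is filled by the liver. Hepatocytes secrete the fibrinogen chains that thrombin turns into clots, inhibitors of proteases, carriers of iron, retinol and thyroid hormone, and the apolipoproteins that coat lipid particles, and they do so at mRNA levels that few other cell types reach. Blood carries these proteins to every tissue, but their mRNA is found mainly in the cells that make them. In a bulk tumour sample, fewer cells of a type and less RNA per cell cannot be told apart.

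The arrays had similar overall scales, with medians over 15502 probe sets between 5.46 and 5.57. MPNST 1 correlated at 0.945 and 0.938 with MPNST 2 and 3, which correlated at 0.968 with each other. SRBCT 3 correlated at 0.892 and 0.864 with SRBCT 1 and 2, and at 0.875 to 0.916 with the MPNST arrays. The Schwann and neural crest factor gene sox10 was at 10.34, 10.64 and 11.01 on the SRBCT arrays and at 10.75, 10.45 and 10.73 on the MPNST arrays. nkx2.2a, whose human ortholog is a target of EWS-FLI1, had values of 10.76, 9.58 and 4.18 on SRBCT 1, 2 and 3, against 3.48 to 3.86 on the MPNST arrays. Expression of the human fusion gene was not checked here.

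For 7 of the 9 genes a single tumour, MPNST 1, stood far above the rest. On MPNST 1, 8 of the 9 members stood at least 2 log2 units above the highest of the 5 other arrays, and 7 of them stood at least 4 units above it. Over all probe sets 0.981% (152 of 15502) passed the 2-unit margin on MPNST 1, but the members were chosen on these levels and nothing is read from their count. In those 7 genes the values of the 3 SRBCT arrays, MPNST 2 and MPNST 3 spread over 0.20 to 0.97 log2 units per gene. The 7 were picked by their gap above these 5 arrays and have low values on them. Nothing is therefore read from the small spread. tfa was raised on MPNST 1 and on other arrays too, and rbp4 was highest on SRBCT 1, not on MPNST 1.

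**Figure D1:**
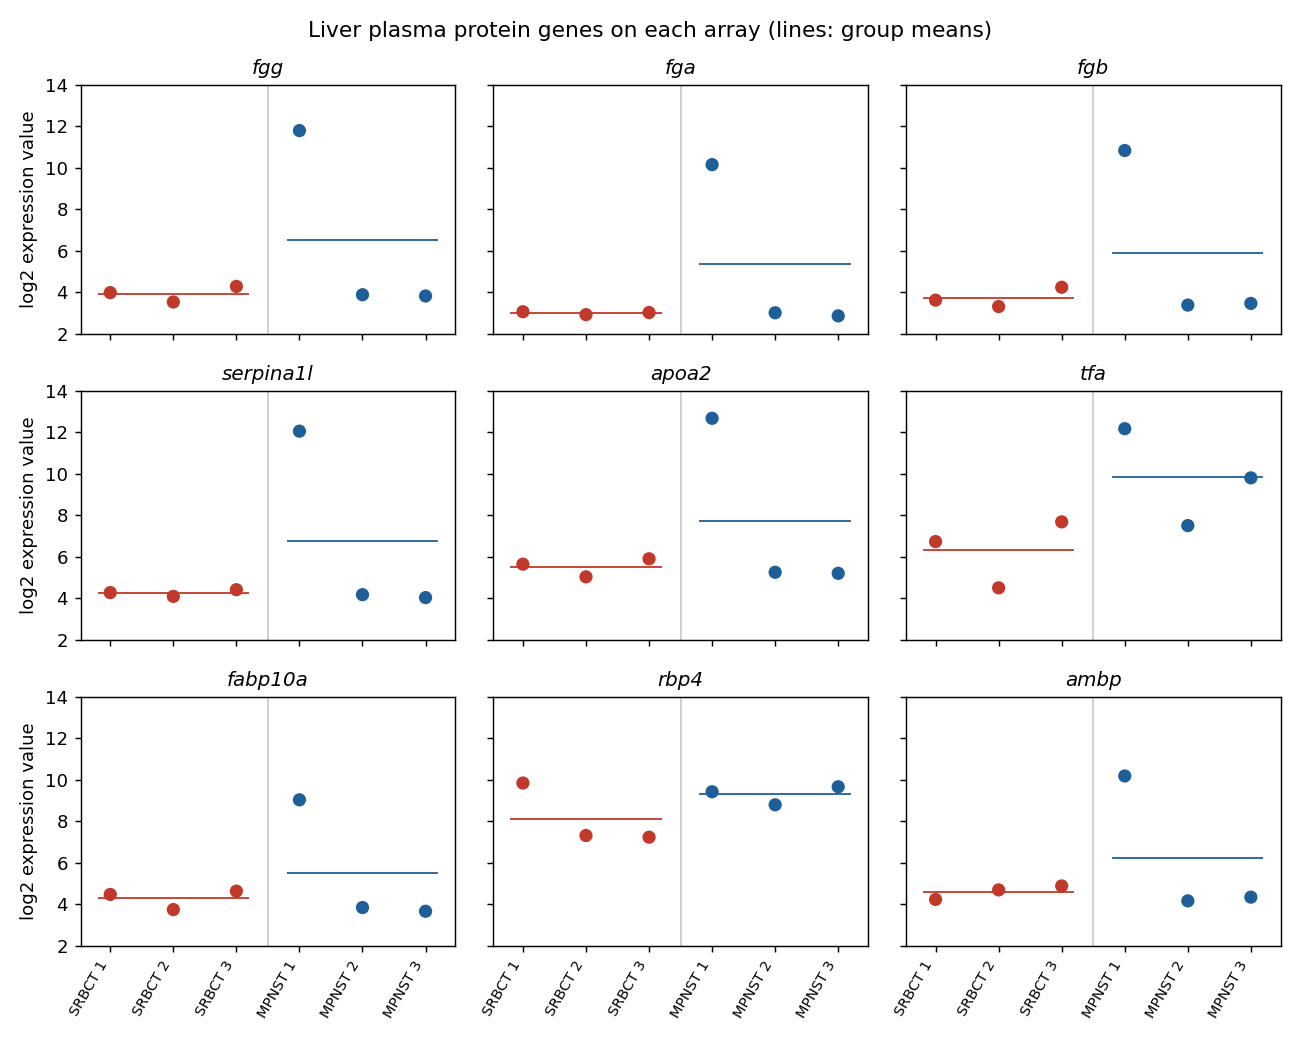
Log2 expression value (vertical axis) of each of the 9 genes on the 3 SRBCT arrays (red, left) and the 3 MPNST arrays (blue, right), with 1 point per array and a line at each group's mean. In 7 panels MPNST 1 stands alone, at 9.04 to 12.68, above 5 arrays that lie at 2.87 to 5.91, whereas tfa varies over all arrays and rbp4 is at 7.24 or more on every array.

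The 3 fibrinogen chains are joined in a single plasma protein, and their genes had the same pattern. fgg, which encodes the gamma chain, had values of 3.99, 3.54 and 4.29 on SRBCT 1, 2 and 3, and of 11.80, 3.89 and 3.83 on MPNST 1, 2 and 3. fga, the alpha chain gene, was at 3.07, 2.93 and 3.03 on the SRBCT arrays and at 10.16, 3.02 and 2.87 on the MPNST arrays. fgb, the beta chain gene, was at 3.63, 3.32 and 4.25 on the SRBCT arrays and at 10.84, 3.39 and 3.47 on the MPNST arrays. In each of the 3 genes MPNST 1 was high and MPNST 2 and 3 lay within or below the range of the SRBCT arrays, so the groups overlapped. The level on MPNST 1 was 238-fold, 145-fold and 150-fold the mean level (of log2 values) of the 5 other arrays for fgg, fga and fgb. RMA, the method that made the values, draws low levels together, so such folds can understate the difference of a gene that is dim on 5 arrays. That was not tested for these genes, and low values do not tell whether a transcript was present.

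The genes of the protease inhibitors followed. serpina1l, a relative of the alpha-1-antitrypsin gene, whose human protein restrains neutrophil elastase, was at 4.28, 4.10 and 4.42 on the SRBCT arrays and at 12.06, 4.18 and 4.04 on the MPNST arrays. Its 5 other arrays lay within 0.38 log2 units of each other, and MPNST 1 stood 7.64 units above the highest of them, the widest gap among the 9 members. ambp encodes a precursor that is cut into alpha-1-microglobulin, a small haem-binding plasma protein, and bikunin, a protease inhibitor. It was at 4.24, 4.70 and 4.89 on the SRBCT arrays and at 10.19, 4.17 and 4.35 on the MPNST arrays, a gap of 5.30 units between MPNST 1 and the highest other array, SRBCT 3.

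The lipid-binding members also peaked on MPNST 1. apoa2, which encodes an apolipoprotein of high density lipoprotein, was at 5.65, 5.04 and 5.91 on the SRBCT arrays and at 12.68, 5.26 and 5.21 on the MPNST arrays, and its value on MPNST 1 was 6.77 units above the highest other array. fabp10a encodes the liver fatty acid binding protein, which holds bile acids and fatty acids in the hepatocyte cytosol. It is not a secreted protein, and its promoter is widely used to mark zebrafish liver. fabp10a was at 4.48, 3.75 and 4.64 on the SRBCT arrays and at 9.04, 3.85 and 3.67 on the MPNST arrays. The cytosolic gene thus was high on the same array as the secreted ones, with a smaller gap of 4.40 units. This is the member just inside the 4-unit margin, and tfa, at 2.37 units, is the nearest outside it.

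tfa and rbp4, the carriers of iron and retinol, departed from the others. tfa encodes transferrin, which in mammals is made mainly by hepatocytes and also by some cells of the brain and testis. It was at 6.74, 4.51 and 7.69 on the SRBCT arrays and at 12.18, 7.51 and 9.81 on the MPNST arrays. MPNST 1 was again highest, but MPNST 3 was also above every SRBCT array, and the 5 other arrays spread over 5.30 units. MPNST 2 lay between SRBCT 1 and SRBCT 3, so the groups overlapped. The annotation assigns 2 more probe sets to tfa together with gstr, and these were not used.

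rbp4 encodes the plasma carrier of retinol, which in mammals comes from liver and from fat tissue. It was at 9.85, 7.32 and 7.24 on the SRBCT arrays and at 9.43, 8.80 and 9.67 on the MPNST arrays. SRBCT 1 was the highest array, MPNST 1 was 0.42 units below it and below MPNST 3, and SRBCT 2 and 3 were the lowest. ttr, whose product binds rbp4 protein and thyroid hormone in plasma, was not measured under its own symbol.

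The pattern over arrays can be stated as a correlation of each member with the mean of the others, a description over 6 arrays in which a single array sets most of the value. Pearson's r was 0.98 or more for fgg, fga, fgb, serpina1l, apoa2, fabp10a and ambp. It was 0.78 for tfa and 0.31 for rbp4. Over the 5 arrays without MPNST 1 it was 0.72 for fgg, 0.55 for apoa2, 0.45 for tfa, 0.44 for fgb, 0.31 for serpina1l and for fabp10a, and 0.17 for fga and rbp4. For ambp it was -0.33. Among the 7 genes with the 4-unit margin, SRBCT 3 was the highest of these 5 arrays for 6. The share of all genes with that order was not counted, and nothing is read from so few dim genes. The lower quartile over all probe sets was 4.10, 3.90 and 4.03 on SRBCT 1, 2 and 3 and between 3.90 and 3.91 on the MPNST arrays, and the part of such shifts in the dim values was not tested.

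The question of the series, what sets SRBCT apart from MPNST, gave no call among these genes. All 9 were lower in SRBCT on average, with a median difference of -2.18, against 0.07 over the 8793 genes. With limma's moderated statistic and a Benjamini-Hochberg adjustment over all probe sets, 0 of the 9 passed an adjusted p of 0.05, where 0.903% (140 of 15502) of the probe sets passed. In the same limma fit 1 of the 9, tfa, had an unadjusted p under 0.05, beside 1383 of all 8793 genes. fgg averaged 3.94 ± 0.38 in SRBCT and 6.51 ± 4.58 in MPNST (SD, n = 3 each), a difference of -2.57 with a standard error of 2.14. tfa averaged 6.31 ± 1.63 in SRBCT and 9.83 ± 2.34 in MPNST (SD, n = 3 each), a difference of -3.52 with a standard error of 1.33. For none of the 9 members did the 2 groups separate, as they did for 1960 of all 8793 genes, and nothing is read from so few members.

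Without MPNST 1 the difference of the 7 genes turned to the other side of 0. It was then 0.08 (SE 0.29) for fgg, 0.06 (SE 0.20) for fga and 0.30 (SE 0.33) for fgb. serpina1l differed by 0.16 (SE 0.22), apoa2 by 0.30 (SE 0.32), ambp by 0.35 (SE 0.28) and fabp10a by 0.53 (SE 0.34). On average MPNST 2 and 3 thus lay slightly below the SRBCT arrays in each of the 7. The 7 genes are dim on these 5 arrays and share the same arrays, so nothing is read from their common sign. tfa and rbp4 kept their sign, at -2.35 (SE 1.15) and -1.10 (SE 0.90). The median over the 9 members was 0.16 in this limma fit of 5 arrays, and 0 of the 9 passed, where 0.697% (108 of 15502) of the probe sets passed. An unadjusted p under 0.05 was reached by 0 of the 9 in this fit, beside 920 of all 8793 genes, and nothing is read from so few members.

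**Figure D2:**
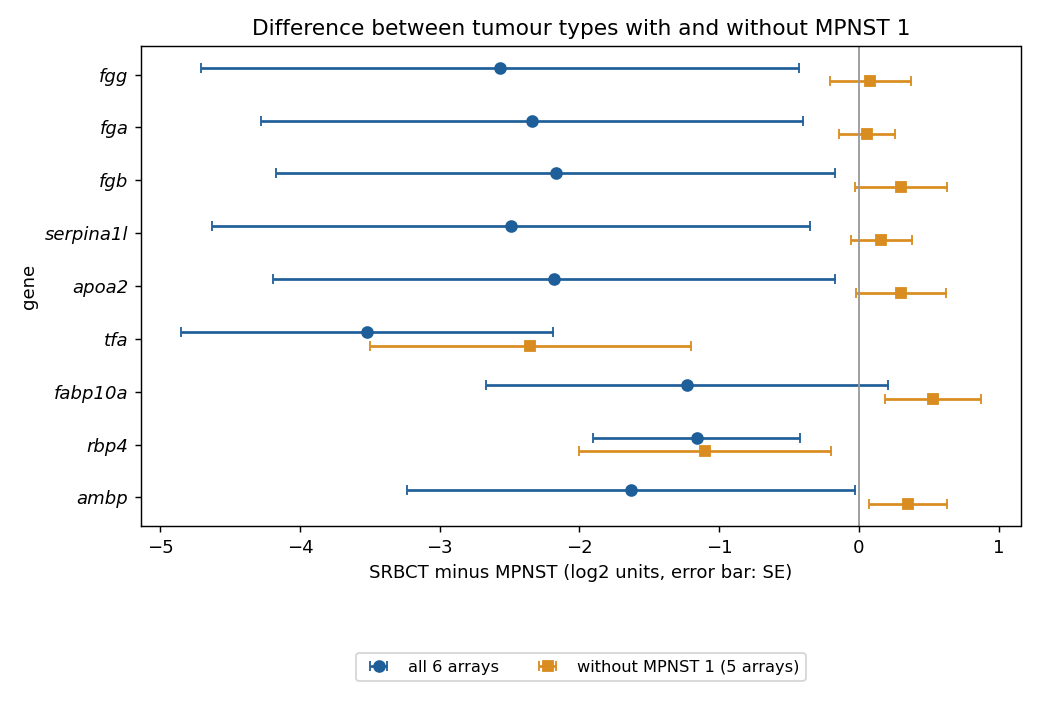
Difference between tumour types (SRBCT minus MPNST, log2 units, horizontal axis) of each gene, with its limma standard error, from all 6 arrays (blue circles) and from 5 arrays without MPNST 1 (orange squares). For 7 genes the difference lies below 0 with all arrays and between 0.06 and 0.53 without MPNST 1, while tfa and rbp4 stay below 0.

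Among all 8793 genes the 5 with the widest gap between MPNST 1 and the next array were the members serpina1l (7.64), fgg (7.51), fga (7.09), apoa2 (6.77) and fgb (6.59). Below them came genes outside the set whose products also enter plasma, such as crp (C-reactive protein family, 6.58), cfhl4 (a relative of complement factor H, 6.54), crp3 (5.85) and c9 (the last component of the complement pore, 5.76). In all, 99 of the 8793 genes (1.13%) had a gap of at least 2 units on MPNST 1. The members were chosen on these levels, so nothing is read from their rank.

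By Pearson's r over 6 arrays, and with an SD of at least 1, the 10 named genes closest to the mean profile of the members were c3a.1 (0.999), c8b (0.997), selenop2 (0.996), crp3 (0.995), leg1.1 (0.995), ldhbb, hpxb, cfhl4, itih3b.2 and uox (all 0.993). Of these 10, 5 are in the list of complement and acute phase genes described next, 1 is in the list of hepatocyte metabolism and 4 are in no list. c3a.1 and c8b encode complement components, hpxb a haem-binding hemopexin, ldhbb a lactate dehydrogenase, itih3b.2 an inter-alpha-trypsin inhibitor heavy chain, and uox the urate oxidase of the hepatocyte peroxisome. hpxb, for example, was at 2.61, 2.52 and 2.90 on the SRBCT arrays and at 7.89, 2.46 and 2.56 on the MPNST arrays. With 1 array so far from the rest, r mainly says that a gene was high on MPNST 1 and even on the others.

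Other liver products were taken from lists written from textbook knowledge, though with earlier results of these data known. Of the 102 genes measured in the 6 lists of liver products, enzymes and factors 0 passed the limma fit over 6 arrays, where 0.903% of the probe sets did. In the same fit 3 of the 102 had an unadjusted p under 0.05, beside 1383 of all 8793 genes. The list called complement and acute phase also holds other liver plasma protein genes, among them agt, kng1 and leg1.1. Of its 25 measured genes 17 stood at least 2 units above all other arrays on MPNST 1 (68.0%, against 1.13% of all genes). The median gap of the list was 3.07, and the counts do not stand for complement genes alone. The exceptions include c7b, a complement gene that was at 11.19, 8.71 and 10.37 on the SRBCT arrays and at 7.0, 5.97 and 6.54 on the MPNST arrays, a difference of 3.59 that did not pass (limma adjusted p 0.0892). saa, the serum amyloid A gene of the acute phase, was highest on MPNST 3, with 4.58, 6.80 and 6.60 on the SRBCT arrays and 7.61, 5.92 and 10.36 on the MPNST arrays. hp, which encodes the haemoglobin scavenger haptoglobin, was at 8.40 on MPNST 1 and between 5.96 and 7.29 on the 5 others.

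The clotting and lipid carrier genes were more mixed. Of 13 coagulation and fibrinolysis genes 6 had the 2-unit gap on MPNST 1 (46.2%, against 1.13% of all genes). The clotting factor gene f5 was at 5.92, 5.03 and 5.30 on the SRBCT arrays and at 9.22, 5.29 and 5.47 on the MPNST arrays. plg, which encodes the plasminogen that dissolves fibrin, was at 8.70 on MPNST 1 and between 4.13 and 4.83 on the 5 others, whereas proza, of the protein Z family, lay between 7.16 and 8.54 on all 6 arrays. Of 15 apolipoprotein and lipid transport genes 6 had the gap. apoc1 was at 7.32, 7.77 and 6.25 on the SRBCT arrays and at 11.83, 5.36 and 6.86 on the MPNST arrays. apoeb, which macrophages also express, was at 9.54, 10.30 and 8.12 on the SRBCT arrays and at 8.68, 7.23 and 8.14 on the MPNST arrays.

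Genes that work inside the hepatocyte were counted in the same way. Their lists too were written with earlier results of these data known, so nothing is read from the shares. Of 32 genes of hepatocyte metabolism 5 had the 2-unit gap on MPNST 1 (15.6%, against 1.13% of all genes), and 16 were highest there, as were 1354 of all 8793 genes (15.4%). The widest gaps of this list were those of ces2a, a carboxylesterase gene (5.03), and uox (4.03). bhmt, an enzyme of methionine metabolism, was at 5.22, 7.43 and 7.52 on the SRBCT arrays and at 11.02, 6.25 and 6.50 on the MPNST arrays. fah, the last enzyme of tyrosine breakdown, lay between 6.74 and 8.57 on all 6 arrays. Of 14 transcription factor genes of the liver 0 were highest on MPNST 1, beside 15.4% of all genes, and nothing is read from so few genes. hnf4a, a main regulator of hepatocyte genes chosen after its values were seen, was at 5.11, 4.07 and 4.54 on the SRBCT arrays and at 4.43, 4.06 and 3.77 on the MPNST arrays. These hnf4a values are low and do not tell whether its transcript was present. cebpa and cebpb, factors with roles in several tissues, were at 7.55 and 8.17 on MPNST 1, inside the range of the other arrays.

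**Figure D3:**
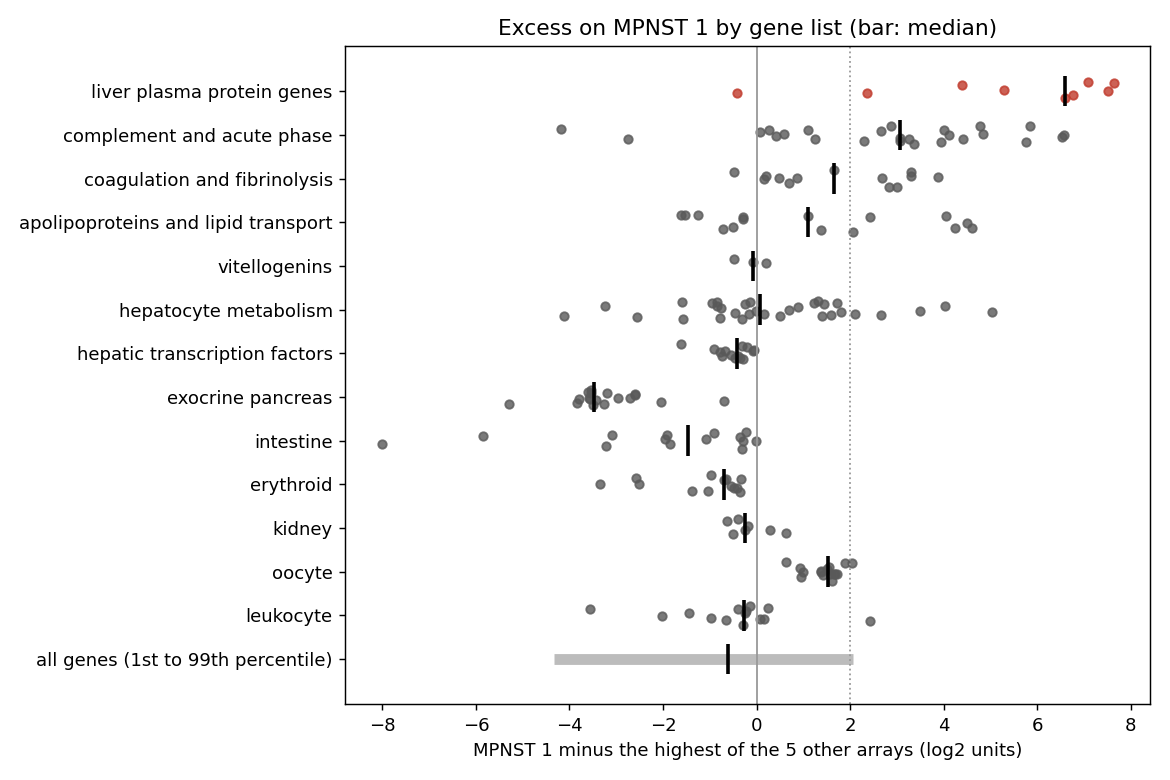
Value on MPNST 1 minus the highest of the 5 other arrays (log2 units, horizontal axis) for each gene of the liver plasma protein set (red) and of 12 other lists (grey), with a bar at each median, and the 1st to 99th percentile over all genes at the bottom. The set's median is 6.59 and that of complement and acute phase genes 3.07, while the median over all genes is -0.61. The set was chosen on these levels, and the other lists with earlier results of these data known.

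The vitellogenins are egg yolk precursors that the liver of egg-laying females secretes, and those measured had no 2-unit gap on MPNST 1. Of the 7 listed, vtg2, vtg3 and vtg4 were measured. vtg2 was at 4.37, 4.31 and 5.04 on the SRBCT arrays and at 5.25, 4.46 and 4.18 on the MPNST arrays. MPNST 1 was thus highest for vtg2, by 0.21 units. The other 2 varied by less than 1 unit over the 6 arrays. Their values were low on every array, and low values do not tell whether a transcript was present. All 16 oocyte genes measured were highest on MPNST 1 (15.4% of all genes were), with a median gap of 1.53 units to the next array. In the limma fit 10 of them fell in SRBCT, where 0.903% of the probe sets passed, and 6 did not pass. The oocyte list was written with earlier results of these data known. zp3f.1, an egg coat gene, was at 5.87, 5.15 and 6.06 on the SRBCT arrays and at 11.33, 10.38 and 10.20 on the MPNST arrays (difference -4.94, limma adjusted p 0.00688). ddx4, a germ cell helicase gene chosen after its values were seen, was at 3.59, 3.04 and 3.68 on the SRBCT arrays and at 5.43, 3.81 and 3.56 on the MPNST arrays, so its groups overlapped.

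Markers of other tissues were read on the same arrays, from lists also written with earlier results of these data known. Of 18 genes of the exocrine pancreas, which secretes digestive enzymes, all 18 were highest on SRBCT 3, as were 1846 of all 8793 genes. The gap there was at least 2 units for 16 of the 18, beside 48 of the 8793 genes. The trypsin gene prss1 was at 7.56, 4.85 and 11.99 on the SRBCT arrays and at 8.79, 4.90 and 5.18 on the MPNST arrays. MPNST 1 came next after SRBCT 3 in prss1 and in 13 of the 18 in all, an order whose share over all genes was not counted. On SRBCT 3 the 7 liver genes lay between 3.03 and 5.91. The intestinal gene fabp6, an ileal bile acid binding protein gene in mammals, was at 11.28, 3.58 and 11.10 on the SRBCT arrays and at 3.27, 3.27 and 3.41 on the MPNST arrays. The brightest gene of the intestine list, lgals2a, was at 8.51, 12.51 and 11.14 on the SRBCT arrays. On the MPNST arrays lgals2a was at 10.55, 11.27 and 11.13, so fabp6 does not stand for the list. Of 14 intestine genes and 13 erythroid genes measured, 0 were highest on MPNST 1, beside 15.4% of all genes, and nothing is read from lists this short. The globin gene hbaa1 was at 9.42, 10.78 and 10.47 on the SRBCT arrays and at 10.91, 12.29 and 11.82 on the MPNST arrays. Another globin gene, hbba2, went the other way on average. It was at 6.16, 6.51 and 7.58 on the SRBCT arrays and at 4.23, 6.79 and 5.15 on the MPNST arrays.

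Relative to each gene's mean over 6 arrays, the median of the liver plasma protein genes was -1.18, -1.41 and -0.71 on SRBCT 1, 2 and 3 and 5.98, -1.25 and -1.31 on MPNST 1, 2 and 3. The 5 negative values arise because the mean includes MPNST 1. Complement and acute phase genes were at 2.94 on MPNST 1, coagulation genes at 1.54, apolipoprotein genes at 1.29 and hepatocyte metabolism genes at 0.96, and hepatic transcription factor genes at 0.08. RNA integrity can be judged from a GAPDH control that is read near both ends of its mRNA. Its 3' signal minus its 5' signal was 0.41, 0.84 and 0.68 on the SRBCT arrays and 1.1, 1.04 and 1.04 on the MPNST arrays. MPNST 1 thus had the largest value, close to those of MPNST 2 and 3. The GAPDH signal was lowest on MPNST 1, at 11.53 at the 3' end and 10.43 at the 5' end. Whether RNA quality had a part in the pattern was not tested. Which cells of the MPNST 1 sample held these transcripts was not tested.

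**Figure D4:**
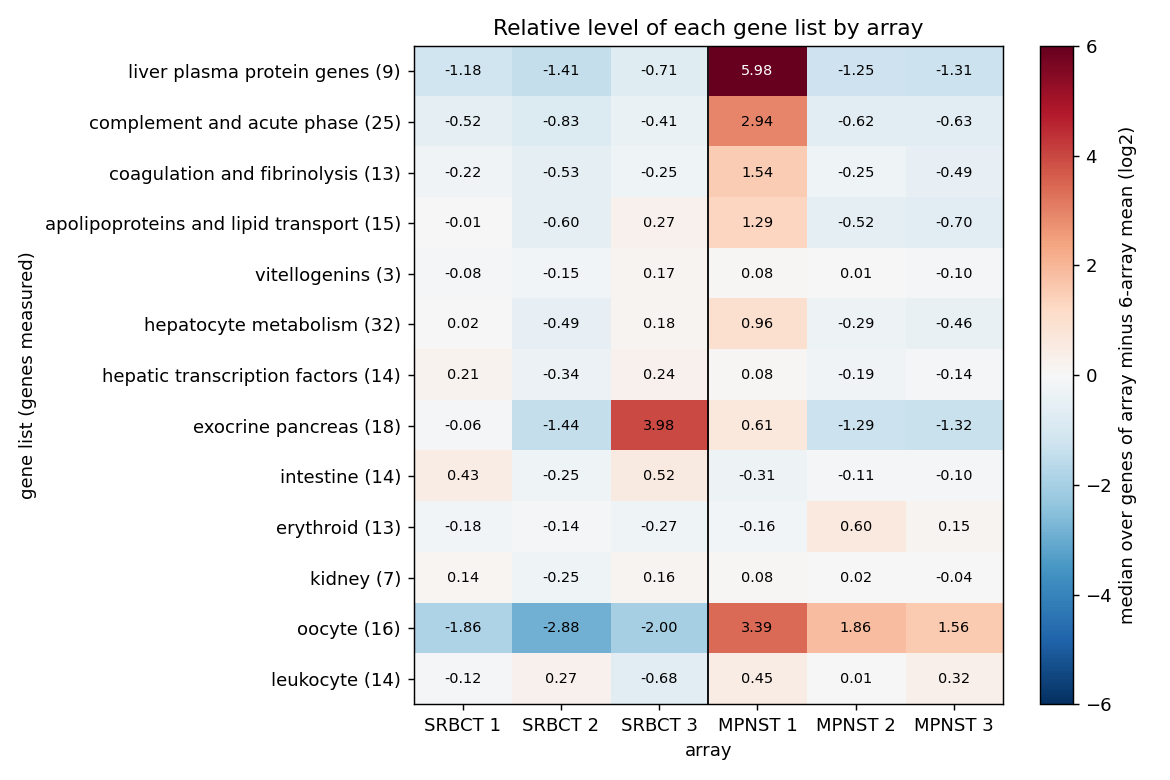
Median over the genes of each list of the array's value minus the gene's 6-array mean (log2 units, colour and printed number), with the 3 SRBCT arrays left of the 3 MPNST arrays and the number of genes measured after each list's name. The liver plasma protein genes reach 5.98 on MPNST 1, exocrine pancreas genes 3.98 on SRBCT 3, and oocyte genes are above 0 on all 3 MPNST arrays.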

How the data were processed

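The deposited values are log2 expression values, 1 per probe set and array, from total RNA of 6 tumours. Per the submitters' processing notes the authors used RMA (background subtraction, quantile normalization, summary per probe set) from affy under R 2.2.0. Base 2 follows from RMA and the values' range, 1.86 to 13.88. No filter is named, and scanner files were not used here. Of 15617 probe sets 115 controls were left out. Names came from the platform annotation, and Entrez identifiers were used to bring symbols up to date with a RefSeq table (1 changed): 10795 probe sets have 1 symbol, 135 several and 4572 none here. The probe set with the highest mean stood for a gene. None of the 9 member probe sets has a name that marks possible cross-hybridization.

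SRBCT and MPNST were compared by limma 3.58.1 (lmFit, eBayes; R 4.3.3) over 6 arrays without covariates, with Benjamini-Hochberg adjustment over 15502 probe sets, and the fit was tested on simulated data. The number of arrays limits the precision. The p-values rest on the spread within both groups of 3 tumours, pooled and moderated by limma over all probe sets. For the 7 genes with the 4-unit margin the SD was 0.07 to 0.47 in SRBCT and 3.05 to 4.59 in MPNST. The members and the 12 other lists were chosen with earlier results of these data known. Named are all members, the 10 most similar genes and, for most lists, only some of the called or of the 3 brightest genes. Others were chosen after their values were seen, so the named genes do not stand for a whole list. Alternatives were other normalizations, a filter on dim probe sets, another variance model, a replicate block, leaving out each array, the mean over a gene's probe sets and a mean over members. All columns belong to the 6 samples. No sequences were used.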

Additional observations from a re-analysis of the deposited data

How the results depend on the processing

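The count of 0 called members held under each alternative run, and so did the direction of the median member difference, except without MPNST 1. Over the fits that left out an array this median ranged from -3.44 (without MPNST 3) to 0.16 (without MPNST 1), against -2.18 with all 6. Over the same fits the number of changed probe sets ranged from 26 (without SRBCT 1) to 1140 (without SRBCT 3), with 38 without MPNST 2 and 57 without MPNST 3, against 140. With the replicate number as a block 88 probe sets changed, 0 members were called and the median member difference was -2.18. Same-numbered arrays of the 2 groups came from fish of different genotype, so they were not from the same fish. Deviations of same-numbered arrays from their group means correlated at 0.0627, 0.0703 and -0.0461. Whether arrays of the same number shared a batch was not tested. The filter on dim probe sets left 3 members, apoa2, tfa and rbp4, so it gives no value for the other 6. Under median centring, a second quantile normalization and cyclic loess, the relative level of the members on MPNST 1 was 5.93, 5.98 and 6.07. With the 6-array median in place of the mean, an alternative chosen after seeing the data, the members' relative level was 0.05, -0.40 and 0.35 on SRBCT 1, 2 and 3, and 7.13, -0.16 and -0.15 on MPNST 1, 2 and 3. Dim values limit what can be said of the 5 other arrays.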

Other observations

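Some genes of the liver and intestine lists were high on SRBCT arrays. These genes were chosen after their values were seen, and each array has no replicate of its own tumour. apoa1a, the gene of the main protein of high density lipoprotein, which intestine also makes, was at 5.81, 4.44 and 8.06 on the SRBCT arrays and at 10.48, 3.84 and 4.32 on the MPNST arrays, so SRBCT 3 came next to MPNST 1. ass1, an enzyme of arginine synthesis, was at 8.30, 7.11 and 4.24 on the SRBCT arrays and at 4.18, 4.53 and 4.21 on the MPNST arrays. lgals2b, a galectin gene of the intestine list, was at 11.14, 4.33 and 11.05 on the SRBCT arrays and at 5.30, 4.23 and 4.41 on the MPNST arrays.

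Among leukocyte genes the lysozyme gene lyz had a gap of 2.43 units on MPNST 1, at 8.14, 8.88 and 5.91 on the SRBCT arrays and 11.31, 5.42 and 5.86 on the MPNST arrays. The other 13 measured leukocyte genes had no gap of 2 units there, and cd74a was at 9.62, 11.35 and 10.44 on the SRBCT arrays and at 11.69, 11.51 and 11.54 on the MPNST arrays. Of the 99 genes with a gap of at least 2 units on MPNST 1, 8 were members, which were chosen on these levels. A further 17 were in the list called complement and acute phase. That list held 25 of the 8793 genes and was written with earlier results of these data known.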
